A study of Mus musculus with 2 samples.

Results

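The 6 mouse microRNA loci described here are Mirlet7b, Mirlet7d, Mirlet7e, Mirlet7g, Mirlet7i and Mir98. Each belongs to the let-7 family and encodes a mature sequence found at a single locus. They were found by their Ensembl gene IDs in the GENCODE M21 annotation, and all 6 were present among the 2202 microRNA loci of the deposited count files. Small RNA below 30 nt had been sequenced from the left cerebral cortex of female mice of the F1 hybrid strain B6CASTF1/J at 14 days of age. There was 1 group of 2 biological replicates, with no treatment and no altered genotype. Replicate 1 is labelled as coming from several females and replicate 2 as coming from 1 female. Whether replicate 1 pools animals is not stated, and both samples carry the same donor record. The results are therefore levels, their spread between 2 libraries, and comparisons among loci. Differences between these libraries may in part be technical.

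The let-7 microRNA was first found in Caenorhabditis elegans as a regulator of developmental timing, and its family is conserved across animals. In mammals it accumulates as cells differentiate and represses growth and stem cell genes such as Lin28a, Hmga2 and Trim71. In the brain, let-7b is known to restrain the proliferation of neural stem cells. A microRNA recognises its targets mainly through its seed, bases 2 to 8 counted from the 5′ end, so that family members with 1 seed share many targets. The LIN28 proteins bind the loop of let-7 precursors and block their maturation, and a GGAG motif in the loop is a known contact.

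The 5p mature sequences are shown because they decide which reads can be assigned to a single locus. They are RefSeq sequences on GRCm38.p6, the assembly known as mm10, and the seed is in capitals. The last 3 lines give the relatives that are encoded at several loci, for comparison.
let-7i-5p: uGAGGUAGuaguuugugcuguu
let-7g-5p: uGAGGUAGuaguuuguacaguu
let-7b-5p: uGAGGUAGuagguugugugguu
let-7d-5p: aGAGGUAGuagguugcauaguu
let-7e-5p: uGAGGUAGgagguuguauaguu
miR-98-5p: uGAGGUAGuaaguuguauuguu
let-7a-5p: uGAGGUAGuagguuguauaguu
let-7c-5p: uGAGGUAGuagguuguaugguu
let-7f-5p: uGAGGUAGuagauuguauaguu

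All 6 members were 22 nt long and had the seed GAGGUAG. RefSeq lists this seed in 13 of 1738 mouse mature microRNAs. Apart from the members and the let-7a, let-7c and let-7f loci, it lists only Mir7k (let-7k), which had 2 reads in each library, and Mir1961, which had 0 reads in both, allowing up to 1.09 CPM (reads per 1000000) in replicate 1 and 0.935 CPM in replicate 2. Positions are counted from 1 at the 5′ end, with let-7a as the reference. Against let-7a, let-7e carried the single substitution U9G, let-7b carried A17G and A19G, and let-7d carried U1A and U16C. miR-98 carried G11A and A19U. let-7g carried G12U and U18C, and let-7i carried the same 2 substitutions together with A17G and A19U. The 6 members differed among themselves at 8 of the 22 positions, none of them within the seed.

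Between pairs of members, 2 to 6 positions differed, with a median of 4 over 15 pairs. The closest pair was let-7g and let-7i, with 2 differing positions, and the most distant was let-7d and let-7i, with 6. The relatives from several loci were nearer in some cases: let-7b differed from let-7c at 1 position and let-7e from let-7a at 1. The other 4 members differed from let-7a, let-7c and let-7f at 2 or more positions each. How many mismatches the authors' alignment allowed is not given in the sources used here, so an exchange of reads between such pairs cannot be assessed from the counts. The longest stretch that a member's hairpin shared letter for letter with any other RefSeq hairpin was 19 nt, held by Mirlet7i with Mirlet7g and by Mirlet7b with Mirlet7c-2. It was 17 nt for Mirlet7e and for Mir98, and 14 nt for Mirlet7d.

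**Figure D1:**
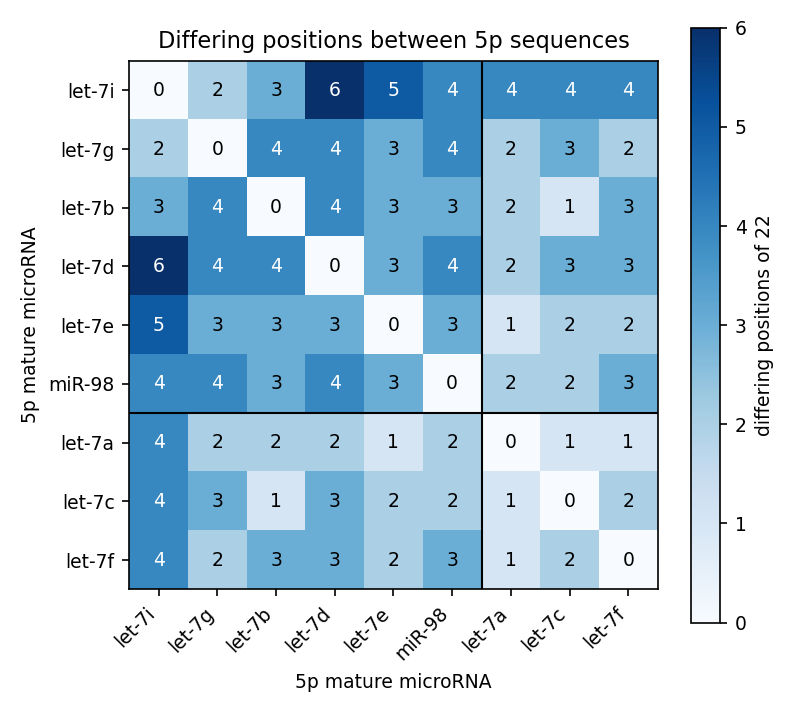
Number of differing positions, out of 22, between the 5p mature sequences named on both axes, with darker blue for more differences. The 6 single-copy members stand above and left of the black lines; the palest cells off the diagonal that join them to relatives from several loci are let-7b with let-7c and let-7e with let-7a, at 1 position each.

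The 3p sequences, which come from the other arm of the same hairpin, were less alike. Only those of Mirlet7b and Mir98 shared a seed, UAUACAA, which RefSeq lists for 5 mouse microRNAs, and the 3p seeds of Mirlet7i, Mirlet7g, Mirlet7d and Mirlet7e were each listed once. The deposited files give 1 count per locus, in which reads of the 2 arms are not separated, so the values below are for the locus as a whole.

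The loops between the 2 mature arms of 5 of the loci are shown for the GGAG motif, which is in capitals. They are RefSeq sequences on GRCm38.p6, 5′ to 3′ on the RNA strand.
Mirlet7i: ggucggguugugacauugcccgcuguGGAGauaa
Mirlet7g: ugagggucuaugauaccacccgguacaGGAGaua
Mirlet7b: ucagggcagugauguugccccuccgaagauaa
Mirlet7d: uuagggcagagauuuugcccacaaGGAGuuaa
Mirlet7e: gaggaagacacccgaGGAGauca

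Of the 5 loops shown, those of Mirlet7d, Mirlet7e, Mirlet7g and Mirlet7i held GGAG, 3 or 4 nt before the 3p arm, and that of Mirlet7b did not hold these letters in the loop. Only the RNA strand was searched. Of 644 RefSeq hairpins with 2 annotated arms, 8.07% held GGAG between the arms. Loops of Mirlet7b, Mirlet7d, Mirlet7g and Mirlet7i were 32 to 34 nt long, and that of Mirlet7e was 23 nt, against a median of 16 nt over those hairpins (5th to 95th percentile 11 to 32 nt). The match is a description of the letters, and its relation to the read counts was not tested.

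The members lie on 6 chromosomes (mm10, GENCODE M21). Mirlet7i (ENSMUSG00000065406.3; chr10:122985640-122985724, minus strand) overlaps an exon of the transcribed pseudogene D630033A02Rik. Mirlet7g (ENSMUSG00000065440.1; chr9:106178840-106178927, plus strand) is intronic in Wdr82, which encodes a subunit of histone methyltransferase complexes. Mirlet7b (ENSMUSG00000065564.1; chr15:85707319-85707403, plus strand) is exonic in the non-coding Lncppara. Mirlet7d (ENSMUSG00000065453.1; chr13:48536012-48536114, minus strand) is exonic in the lincRNA 6720427I07Rik. Mirlet7e (ENSMUSG00000105758.1; chr17:17830352-17830444, plus strand) is intronic in Spaca6, known for a sperm protein, and Mir98 (ENSMUSG00000065536.2; chrX:151913214-151913321, plus strand) is intronic in Huwe1, a ubiquitin ligase gene. The hairpins measured 85 to 108 nt, and the RefSeq hairpins had the GENCODE coordinates for all 6.

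The 2 libraries held 7745369 and 9627908 reads, of which 2740332 and 3207941 were counted on the gene strand of a microRNA locus. Reads that mapped to several places, 40.6% and 37.9% of all reads, enter no locus count. Levels are given as CPM, the reads of a locus per 1000000 gene-assigned reads of its library, where 1 read equals 0.365 CPM in replicate 1 and 0.312 CPM in replicate 2. Each read is a whole small RNA, so levels were not divided by locus length. Neuronal microRNAs (12 loci, 8 with at least 10 reads in each library) supplied 3.34% of the counted reads of replicate 1 and 4.25% of those of replicate 2. Of these 8 loci, 3 were higher in replicate 1 and 5 in replicate 2. Some loci of this list, such as those of miR-124, share a mature sequence with other loci. Their reads can be set aside as multiply mapped, so these shares are not neuronal levels. Muscle loci had 90 and 131 reads, with 1 of 7 loci at 10 reads or more in each library. Pluripotency loci had 4 and 12 reads, with 0 of 8 loci at that minimum. In at least 1 library, 4 of the 7 muscle loci (Mir1a-1, Mir1a-2, Mir133a-1 and Mir133a-2) and 6 of the 8 pluripotency loci were at 0. miR-1a and miR-133a are encoded at several loci, so their reads can be set aside as multiply mapped and these zeros do not show that they are absent.

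Mirlet7i, Mirlet7g and Mirlet7b were the most abundant of the 6 loci, each at 53178 CPM or more in both libraries, and Mir98 was the least abundant. Together the 6 loci supplied 29.9% of the counted reads of replicate 1 (exact binomial 95% interval 29.85% to 29.96%) and 24.1% of those of replicate 2 (24.04% to 24.13%). The mean was 27.0% ± 4.12 (SD, n = 2). Of all reads in the files, mapped or not, they made up 10.6% in replicate 1 and 8.02% in replicate 2. The intervals cover counting error only, and they were far narrower than the gap between the libraries. In tissue, fewer cells of a type and less RNA per cell cannot be told apart in any of these levels.

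Mirlet7i had 255035 reads (93067 CPM) in replicate 1 and 207679 reads (64739 CPM) in replicate 2, a mean of 78903 ± 20031 CPM (SD, n = 2). It was the locus with the most reads in replicate 1 and ranked 4 in replicate 2, among all 2202 loci. Mirlet7g had 242307 reads (88422 CPM) in replicate 1 and 170593 reads (53178 CPM) in replicate 2, and ranked 2 and 5. Both loci were higher in replicate 1. They are also the pair of members with the most similar 5p sequences, as shown above. A relation of this likeness to their levels was not tested.

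Mirlet7b, named above for its part in neural stem cells, had 160854 reads (58699 CPM) in replicate 1 and 223986 reads (69822 CPM) in replicate 2. Its mean was 64261 ± 7866 CPM (SD, n = 2), with a coefficient of variation of 12.2%. It ranked 5 in replicate 1 and 2 in replicate 2, so that it stood below Mirlet7i and Mirlet7g in the first library and above both in the second.

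Mirlet7d, whose 5p sequence is the only one of the 6 that starts with A, had 91520 reads (33397 CPM) in replicate 1 and 87338 reads (27226 CPM) in replicate 2. Mirlet7e had 54784 reads (19992 CPM) in replicate 1 and 75363 reads (23493 CPM) in replicate 2. The ranges of these 2 loci did not overlap, but in replicate 2 Mirlet7d was only 1.16-fold above Mirlet7e, against 1.67-fold in replicate 1. Mirlet7e had the smallest coefficient of variation of the 6, at 11.4%.

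Mir98, the member on the X chromosome, had 15088 reads (5506 CPM) in replicate 1 and 7647 reads (2384 CPM) in replicate 2. Its mean of 3945 ± 2208 CPM (SD, n = 2) placed it 48 among all loci, and its coefficient of variation of 56.0% was the largest of the 6. Mirlet7e, the next locus up, was 3.63-fold above it in replicate 1 and 9.86-fold in replicate 2.

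**Figure D2:**
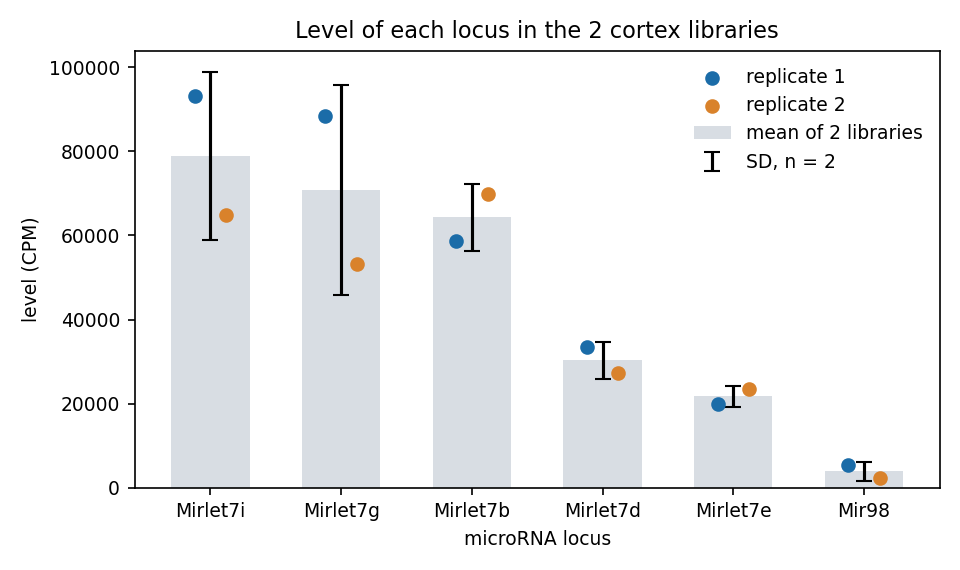
Level of each of the 6 loci, in CPM on a linear axis from 0. Points are the 2 libraries, bars their mean and error bars the SD (n = 2). Mirlet7i, Mirlet7g and Mirlet7b overlap in their ranges, while Mirlet7d, Mirlet7e and Mir98 lie below them in both libraries.

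The order of the levels was resolved for 12 of the 15 pairs of loci, in the sense that the lower library of the one exceeded the higher library of the other. The 3 unresolved pairs were those among Mirlet7i, Mirlet7g and Mirlet7b. Mirlet7i was above Mirlet7g in both libraries, by 1.05-fold in replicate 1 and 1.22-fold in replicate 2, but their ranges overlapped. No test of the order is given, since the design has only 2 libraries.

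The make-up of the 6-locus reads differed between the libraries mainly in the 3 abundant loci. Mirlet7i supplied 31.1% of these reads in replicate 1 and 26.9% in replicate 2, and Mirlet7g supplied 29.6% and 22.1%. Mirlet7b supplied 19.6% in replicate 1 and 29.0% in replicate 2. Mirlet7e went the same way as Mirlet7b, with 6.68% and 9.75%, while Mir98 supplied 1.84% and 0.990%. Mirlet7d supplied 11.2% and 11.3%, with a mean of 11.2% ± 0.0974 (SD, n = 2), the narrowest spread of the 6.

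**Figure D3:**
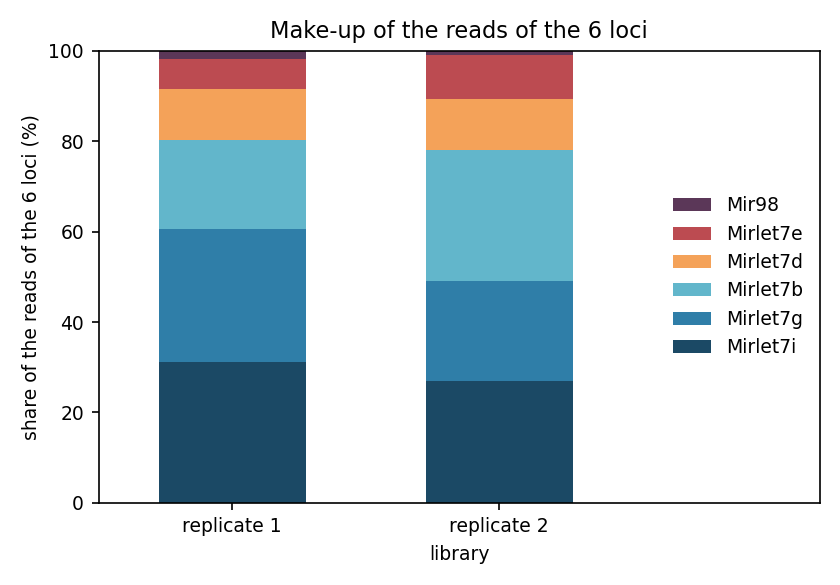
Share of each locus, in percent, of all reads counted at the 6 loci, in replicate 1 (left) and replicate 2 (right). Mirlet7i and Mirlet7g together fill 60.7% of the bar in replicate 1 and 49.0% in replicate 2, while the part of Mirlet7d is of nearly equal height.

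For the comparison of the libraries, reads were scaled by the trimmed mean of M values (TMM), and log2 ratios are of replicate 1 over replicate 2. They compare 2 libraries of 1 group and carry no p-value. Of the 6 loci, 3 were more than 1.5-fold higher in replicate 1 and 0 were more than 1.5-fold higher in replicate 2. Among the 389 loci with at least 10 reads in each library, 14.4% were past this fold in the first direction, 18.3% in the second and 32.6% in either. Past 2-fold was 1 of the 6 loci, Mir98, against 11.3% of the 389. The median log2 ratio was 0.58 over the 6 loci and 0.0098 over the 389, whose SD was 0.70. The difference between these medians was not tested.

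Mir98 had the largest log2 ratio of the 6, at 1.38 (exact 95% interval 1.34 to 1.42, counting error only), which is a 2.60-fold difference and ranks 12 among the 389 loci from the highest ratio down. Mirlet7g followed at 0.91 (0.90 to 0.91), a 1.87-fold difference. Mirlet7i had 0.70 (0.69 to 0.70), a 1.62-fold difference, which was 0.52 and within 1.5-fold when library totals were used without TMM. That scaling shifted the median of all 389 loci by −0.17.

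Mirlet7d had a log2 ratio of 0.47, within 1.5-fold. Mirlet7b had −0.078 and Mirlet7e −0.060, so on the TMM scale these loci were nearly level between the libraries. On the CPM scale, both were higher in replicate 2. The 6 ratios therefore spanned from −0.078 to 1.38 on the log2 scale, and members with 1 seed did not move by a common factor. Among the 23 loci with a mean of at least 10000 CPM, Mirlet7i, Mirlet7g and the endothelial Mir126a were past 1.5-fold in replicate 1, and Mir128-1 and Mir487b in replicate 2. Mir126a, Mir128-1 and Mir487b were named after their values were seen.

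**Figure D4:**
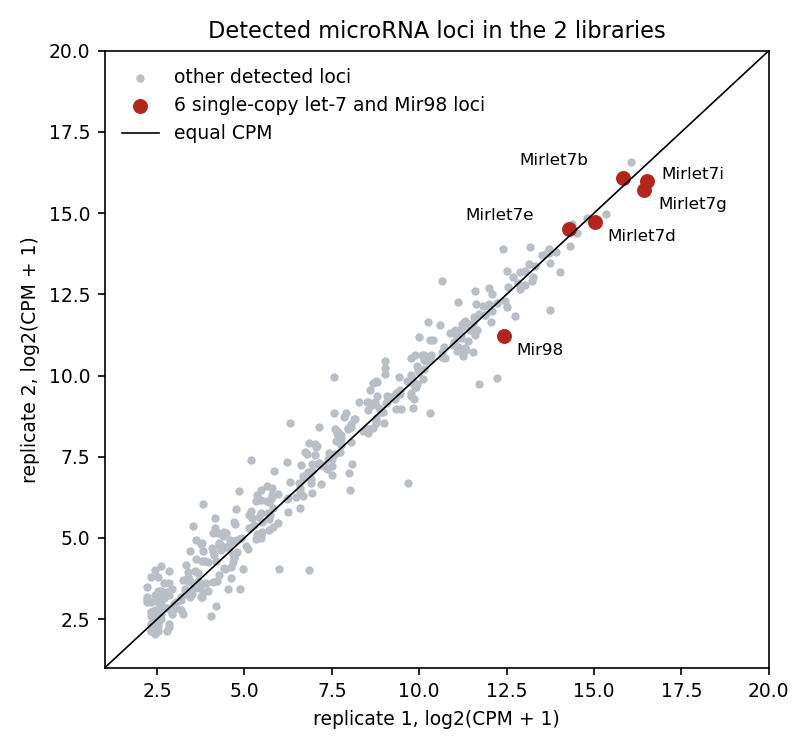
Each of the 389 detected loci by log2(CPM + 1) in replicate 1 (horizontal) and replicate 2 (vertical), with the 6 loci in red and the line of equal CPM in black. Mir98 lies farthest below the line among the 6, and Mirlet7b and Mirlet7e lie slightly above it.

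Marker microRNAs of other cell types also differed between the libraries. The oligodendrocyte list (3 of 3 loci detected, none at 0) supplied 0.428% of the counted reads of replicate 1 and 0.148% of those of replicate 2. The endothelial and mural list (3 of 3 detected, none at 0) held 2.12% and 1.36%, and the erythroid list (2 of 2 detected, none at 0) held 0.0952% and 0.0564%. The microglial and leukocyte list (4 of 5 detected, none at 0) held 0.156% and 0.189%, the choroid plexus list (1 of 2 detected, none at 0) held 0.0447% and 0.0899%, and the liver locus Mir122 had 167 and 138 reads. The loci within a list did not always go the same way as its share. In the microglial and leukocyte list, 2 detected loci were higher in replicate 1 and 2 in replicate 2. These numbers were 2 and 1 in the endothelial and mural list, and 1 and 1 in the erythroid list. All 3 oligodendrocyte loci were higher in replicate 1. In the neuronal list, Mir124a-3, which shares its mature sequence with other loci, was at 0 in at least 1 library. The part of cell make-up in the differences of the 6 loci was not tested.

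Several members lie close to other microRNA loci on the same strand, and such neighbours are usually cut from a shared primary transcript. Mirlet7d lies 1714 nt from Mirlet7f-1 and 2064 nt from Mirlet7a-1, the other let-7 loci of this cluster. Beside the 91520 and 87338 reads of Mirlet7d, Mirlet7f-1 had 450 reads in replicate 1 and 439 in replicate 2, and Mirlet7a-1 had 1127 and 1070. Mirlet7d exceeded Mirlet7f-1 by 203-fold and 199-fold in the 2 libraries, and Mirlet7a-1 by 81.2-fold and 81.6-fold. The log2 ratios between the libraries were 0.47 for Mirlet7d, 0.44 for Mirlet7f-1 (exact 95% interval 0.24 to 0.63) and 0.47 for Mirlet7a-1 (0.35 to 0.60), so the 3 loci differed by less than counting error. Reads of the mature let-7a and let-7f map to several places and are left out. The fold between the loci is therefore not a ratio of mature microRNAs, and the log2 ratios beside each other are of unlike reads.

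Mirlet7e lies 94 nt from Mir99b and 367 nt from Mir125a. miR-99 and its relative miR-100 are known to repress mTOR, and miR-125 is the vertebrate relative of lin-4 of Caenorhabditis elegans. Beside the 54784 and 75363 reads of Mirlet7e, Mir99b had 36666 reads in replicate 1 and 45074 in replicate 2, and Mir125a had 16151 and 30406. Mirlet7e was 1.49-fold and 1.67-fold above Mir99b, and 3.39-fold and 2.48-fold above Mir125a. Between the libraries, the log2 ratio was −0.060 for Mirlet7e, 0.10 for Mir99b and −0.51 for Mir125a, each outside the counting intervals of the others.

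Mirlet7b lies 621 nt downstream of Mirlet7c-2, which had 5517 reads in replicate 1 and 6341 in replicate 2, and exceeded it by 29.2-fold and 35.3-fold. Mir98 lies 785 nt downstream of Mirlet7f-2, which had 6297 and 5795 reads, and exceeded it by 2.40-fold and 1.32-fold. The log2 ratio was 1.38 for Mir98, against 0.52 (0.47 to 0.57) for Mirlet7f-2. Reads of the mature let-7c and let-7f map to several places and are left out. The folds over Mirlet7c-2 and Mirlet7f-2 are therefore not ratios of mature microRNAs, and the log2 ratios beside each other are of unlike reads. Mirlet7g has Mir135a-1 as its only same-strand neighbour within 50 kb, 24626 nt upstream, with 67 reads in replicate 1 and 93 in replicate 2. Mirlet7i has none within 50 kb.

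**Figure D5:**
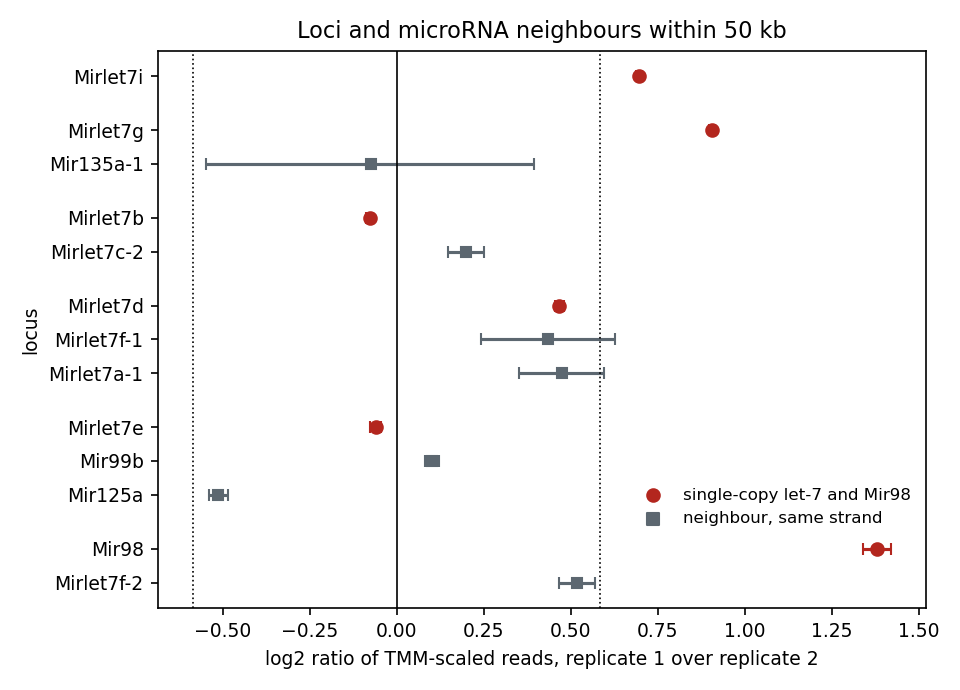
Log2 ratio of TMM-scaled reads, replicate 1 over replicate 2, for the 6 loci (red circles) and their same-strand microRNA neighbours within 50 kb (grey squares), with exact 95% counting intervals. Dotted lines mark 1.5-fold. Mirlet7d and its 2 neighbours lie together near 0.47, whereas Mir98 lies apart from Mirlet7f-2, and Mirlet7b from Mirlet7c-2. Counts of the let-7a, let-7c and let-7f neighbours leave out the mature reads, so these ratios are of unlike reads.

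The 6 duplicated let-7a, let-7c and let-7f loci supplied only 0.564% of the counted reads of replicate 1 and 0.507% of those of replicate 2. Of the reads counted at these and the 6 single-copy loci, 12 in all, the single-copy loci held 98.2% and 97.9%. This share is of single-locus reads and cannot be read as a share of mature let-7. The miR-99, miR-100 and miR-125 loci (Mir99a, Mir99b, Mir100, Mir125a, Mir125b-1 and Mir125b-2) held 5.65% and 6.21%. Of these 6 loci and the 6 duplicated let-7 loci, together with Mir7j, Mir7k and Mir202, whose seed is related, 13 of 15 were detected, 1 was more than 1.5-fold higher in replicate 1 and 0 in replicate 2, against 14.4% and 18.3% of all 389 detected loci. The locus past the fold was Mir7j (let-7j), with 65 reads in replicate 1 and 40 in replicate 2. Their median log2 ratio was 0.14.

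Almost no reads were counted on the strand opposite to the members. Mirlet7b had 3 such reads in replicate 1 and 8 in replicate 2, and the other 5 loci had 0. Mirlet7e is overlapped on the opposite strand by the predicted microRNA locus Gm25927 (chr17:17830343-17830459), which had 0 reads on its own strand in both libraries. Without regard to strand, the reads of Mirlet7e are set aside as ambiguous, and its count is 0 in both libraries. Its level is therefore visible only in the stranded counts.

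Outside the let-7 family, the loci nearest in level over the 2 libraries, by Euclidean distance in log2(CPM + 1), were Mir127 for Mirlet7b (distance 0.071), Mirlet7i (0.60) and Mirlet7g (0.64). Mir744 was nearest to Mirlet7e (0.15), Mir99a to Mirlet7d (0.26) and Mir335 to Mir98 (0.56). With 2 libraries, this measure describes the level and little else.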

How the data were processed

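Small RNA was sequenced in 2 libraries of 1 group. For each microRNA gene, the authors deposited whole-number read counts on mm10 with GENCODE M21, per the labels and the file list of each library. The aligner, the counter, the trimming and the mismatch limit are not stated in any source used. There are 3 unnamed count columns per file. Their meaning was taken from the values, and the column of reads on the gene's own strand was used. Library sizes exclude the 4 rows without a gene, which in replicate 1 comprise 18.1% unmapped, 40.6% multiply mapped and 5.93% off-gene reads, and in replicate 2 comprise 22.8%, 37.9% and 6.03%.

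All 2202 IDs matched GENCODE M21. CPM was computed per 1000000 gene-assigned reads. Log2 ratios used edgeR 4.0.16 TMM factors over loci with at least 10 reads in each library, and intervals are exact binomial (95%). No p-values were computed, since 1 group gives no comparison. Alternatives were the unstranded column, all reads as denominator, DESeq2 1.42.0 size factors, library totals, other minimums (5, 50, none), a fold of 2 and leaving out each replicate. Hairpin loops were searched for GGAG; that of Mir98 is not reported here. Ratios and intervals were tested on simulated counts with counting error alone, so that test does not cover other variation between libraries. Named loci were the members, the let-7, miR-99, miR-100 and miR-125 loci, same-strand neighbours within 50 kb, the nearest locus in level, and marker lists. The members and lists were chosen with earlier results of these data known. Intervals reflect counting error alone (molecular identifiers are not mentioned), and reads of the hybrid strain were counted against the mm10 reference.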

Additional observations from a re-analysis of the deposited data

How the results depend on the processing

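The share of gene-assigned reads held by the 6 loci was 26.7% in the column without strand, where Mirlet7e has no reads, and 24.1% to 29.9% when either replicate was left out. Taken over all reads of the files it was 9.30%, because the denominator then holds unmapped and multiply mapped reads. With a 2-fold limit in place of 1.5-fold, 1 locus (Mir98) was past it, against 11.3% of all detected loci. With library totals 2 loci were past 1.5-fold, Mir98 and Mirlet7g, against 31.6% of all detected loci. The number was 3 with DESeq2 size factors (32.4% of all), in the column without strand (32.3%, with 5 of the 6 loci measured), and with a minimum of 5 reads (37%), 50 reads (27.9%) or none (45.6%), where 3 of 6 lies near the share of all loci. No log2 ratio of the 6 changed sign under any scaling or minimum tried: Mirlet7b ranged from −0.25 to −0.072, Mirlet7e from −0.23 to −0.055, Mirlet7d from 0.29 to 0.47, Mirlet7i from 0.52 to 0.70, Mirlet7g from 0.73 to 0.91 and Mir98 from 1.21 to 1.39. No paired analysis was possible because there is 1 group. With 2 libraries the spread is itself poorly known, whereas counting error is small beside the gap between the libraries.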

Other observations

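On the TMM scale, the 3 members past 1.5-fold were Mirlet7g, Mirlet7i and Mir98. They were also the members whose 5p sequence departs from let-7a at position 11 (miR-98) or 12 (let-7g and let-7i). Their log2 ratios were 0.70 to 1.38, and the 3 without a substitution at either position had −0.078 to 0.47. With library totals, Mirlet7i was at 0.52, within 1.5-fold, and left the group past the fold. Outside the 6, the let-7f loci, whose 5p sequence carries G12A, had TMM-scaled log2 ratios of 0.44 to 0.52, within 1.5-fold. Reads of the mature let-7f are left out of those counts, so they cannot show whether the split extends to let-7f. The grouping of the 6 was made after the values were seen, and it was not tested.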
